A study of Mus musculus with 16 samples.

Results

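A set of 10 genes known as marks of fibroblast and mesenchymal identity were followed in mouse embryonic fibroblasts (MEF) with and without CHOP. They are the receptor genes Pdgfra and Pdgfrb, the surface protein genes Thy1 and Cd34, the transcription factor genes Prrx1, Prrx2, Twist1 and Twist2, the calcium-binding protein gene S100a4 and the filament gene Vim. They were chosen by symbol, as all probe sets that name 1 of these genes and no other, and they make up 10 of the 18193 genes with such a probe set on the array. The 10 genes had 20 of the 34945 single-gene probe sets, and all 10 could be tested. The cells were wild-type (CHOP+/+) or CHOP-/-, lacking the stress transcription factor encoded by Ddit3, and were grown in DMEM with high glucose and fetal bovine serum. Each genotype was left untreated or was exposed for 8 hours to 1 µM of MG132, which blocks the proteasome, on 4 plates per group and 16 plates in all. The treatment field calls the untreated plates unstressed, whereas the sample descriptions name DMSO as their vehicle, so whether the MG132 responses include the solvent cannot be told apart from the labels. Separate embryos or cell isolations are not named, so the p-values measure only the spread between plates, and a difference between genotypes cannot be told apart from a difference between 2 cell stocks.

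The PDGF receptors are receptor tyrosine kinases that take up PDGF dimers at the surface of mesenchymal cells and pass the signal to adaptor proteins that drive growth and migration. PRRX and TWIST proteins are homeobox and basic helix-loop-helix transcription factors that shape limb and head mesenchyme, and TWIST proteins bind E-boxes as dimers with E proteins. THY1 and CD34 are surface glycoproteins that mark subsets of stromal cells, and CD34 is also known from endothelium and blood progenitors. S100A4, once named fibroblast-specific protein, and vimentin, the intermediate filament of mesenchymal cells, are widely used to label fibroblasts.

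The promoters of 4 genes are shown, because Pdgfra and Cd34 differed most between the genotypes and because the related genes Twist1 and Twist2 moved in opposite directions with MG132 in wild-type cells. Each is the stretch of 250 bases before the gene's start in RefSeq (build GRCm38.p6, + strand, 5′ to 3′), at chr5:75152001-75152250 for Pdgfra, chr1:194938571-194938820 for Cd34, chr12:33957421-33957670 for Twist1 and chr1:91801211-91801460 for Twist2. Capitals mark matches on either strand to CANNTG (the E-box), TGCAAT (the core of the element described for CHOP with C/EBP proteins) or TATAAA (the TATA box), and no matches overlapped.
Pdgfra: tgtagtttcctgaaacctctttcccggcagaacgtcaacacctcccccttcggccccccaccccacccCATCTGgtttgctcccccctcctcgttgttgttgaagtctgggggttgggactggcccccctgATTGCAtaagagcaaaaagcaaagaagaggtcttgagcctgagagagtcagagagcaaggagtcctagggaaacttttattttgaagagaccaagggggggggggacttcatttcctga
Cd34: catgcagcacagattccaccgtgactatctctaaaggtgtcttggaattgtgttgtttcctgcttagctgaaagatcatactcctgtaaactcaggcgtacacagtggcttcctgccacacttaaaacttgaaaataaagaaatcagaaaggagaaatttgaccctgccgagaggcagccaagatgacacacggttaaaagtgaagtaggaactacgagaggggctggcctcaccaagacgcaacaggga
Twist1: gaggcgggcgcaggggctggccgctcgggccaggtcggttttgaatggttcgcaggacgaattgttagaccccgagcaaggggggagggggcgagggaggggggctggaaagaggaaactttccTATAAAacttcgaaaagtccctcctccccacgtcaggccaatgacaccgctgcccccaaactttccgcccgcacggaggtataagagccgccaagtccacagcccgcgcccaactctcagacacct
Twist2: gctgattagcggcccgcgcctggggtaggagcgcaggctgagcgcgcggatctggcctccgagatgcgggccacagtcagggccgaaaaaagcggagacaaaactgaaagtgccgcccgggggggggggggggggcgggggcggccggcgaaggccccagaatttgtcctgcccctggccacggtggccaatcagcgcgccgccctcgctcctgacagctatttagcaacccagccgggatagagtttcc
The Pdgfra stretch held 1 CANNTG and 1 TGCAAT, the latter on the reverse strand, the Twist1 stretch held 1 TATAAA, and those of Cd34 and Twist2 held none of the 3. Of the 8 genes matched in RefSeq, 1 had CANNTG, 1 had TGCAAT and 3 (Twist1, S100a4 and Vim) had TATAAA. Of all 32851 promoter stretches of this length, 66.2% held CANNTG, 7.32% TGCAAT and 12.4% TATAAA. The GC content was 54.4% for Pdgfra, 46.4% for Cd34, 62.4% for Twist1 and 68.8% for Twist2, against a median of 52.4% over all stretches. CpG pairs numbered 4, 6, 18 and 23 in the same order, against a median of 6. A match is a description of letters and not of binding.

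Values are MAS5 signals, a linear brightness per probe set that the authors scaled to a trimmed mean of 1000 on every array, and signals of different probe sets are not comparable in level. The median signal was 90.1 to 113 across the 16 arrays, and arrays of 1 group correlated at 0.979 to 0.985. Where a probe set lay near the median of its array, its signal could not be told from background, because no detection calls were used here. Ddit3, the gene that encodes CHOP, was set against the labels: its stronger probe set, 1417516_at, ranged from 887 to 1127 in wild-type cells without MG132 and from 6891 to 8181 with it, against 343 to 393 and 342 to 430 in the CHOP-/- groups. On this probe set the groups labelled CHOP-/- were lower on every array. The other one, 1443897_at, did not separate the genotypes: its means were 258, 286, 256 and 290 in untreated wild-type, treated wild-type, untreated CHOP-/- and treated CHOP-/- cells, and all groups overlapped. Where either lies relative to the deletion is not known here. Xist, Eif2s3y and Uty, which lie on the sex chromosomes and were looked at after their values were seen, also separated the genotypes: Xist was 245 to 453 in wild-type and 8232 to 11853 in CHOP-/- cells, and Eif2s3y was 4372 to 7504 against 1.59 to 29.7. Sex-linked expression and CHOP status therefore cannot be told apart in any difference between the genotypes. No batch is named in the labels.

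Of 13 fibroblast markers, 12 had a single-gene probe set, and 10, 10, 10 and 11 of them lay above the array median on all 4 arrays in untreated wild-type, treated wild-type, untreated CHOP-/- and treated CHOP-/- cells. Lum was not above it in any group, Dcn was above it only in the CHOP-/- groups, and Pdgfra failed it in untreated CHOP-/- cells. Of 9 endothelial markers none was above the array median in the first 3 groups and 1 (Kdr) was in treated CHOP-/- cells, with Pecam1 means of 8.82 to 14.2. Pericyte and smooth muscle markers numbered 1, 2, 3 and 3 of 8, leukocyte markers 3, 3, 3 and 2 of 9, neural markers 3, 3, 2 and 3 of 8, and epithelial markers 2, 3, 2 and 2 of 8. Of the epithelial markers Krt19 had means of 6535, 7844, 3904 and 3257, and Epcam of 185, 179, 147 and 170. These were bulk samples, so fewer cells of a type and less RNA per cell cannot be told apart.

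The genotypes differed in most of the 10 genes before any treatment. Untreated CHOP-/- cells had less Pdgfra signal than wild-type cells, by 4.29-fold to 19.9-fold over its 3 probe sets and down to about the array median, where signal cannot be told from background. They had 2.54-fold less Pdgfrb signal, 2.95-fold less Prrx2 and 2.15-fold less Twist1, but 12-fold more Thy1 and 35.9-fold more Cd34. Twist2 and Vim did not pass the test. In limma, with Benjamini-Hochberg adjustment over all 11451 genes tested and a threshold of 0.05, 2 of the 10 genes were higher and 6 lower in untreated CHOP-/- cells, where 55.6% of all tested genes were called, 28.6% higher and 26.9% lower. The median difference of the 10 genes was -0.31 on the log2 scale and that of all tested genes 0.01. After MG132, 2 were higher and 7 lower in CHOP-/- cells, where 58.8% of all tested genes were called, 30.7% higher and 28.1% lower, with medians of -0.65 and 0.02. Of all calls in treated cells 52.3% were higher, or 63.4% with each array centred on its median.

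**Figure D1:**
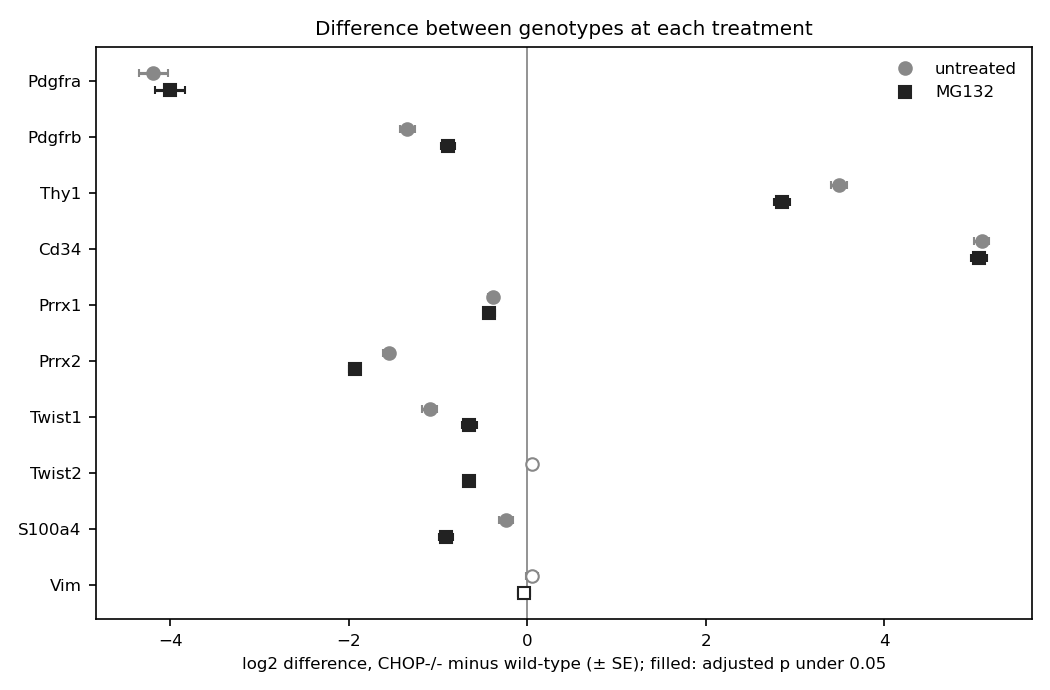
Difference between CHOP-/- and wild-type cells for each of the 10 genes (log2 of signal plus 16, bars are the SE), untreated as circles and MG132-treated as squares, filled where the adjusted p in limma was under 0.05. Cd34 (5.10 untreated) and Thy1 (3.50) lie to the right, Pdgfra (-4.19) lies farthest to the left, and Vim lies near 0 at both treatments.

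MG132 lowered Pdgfrb, Prrx1, Prrx2, Twist1 and S100a4 in both genotypes on the strongest probe set of each. The other probe sets of Prrx1 did not all fall, and 1439774_at rose in wild-type cells (0.22 on the log2 scale). Twist2 rose in wild-type cells, to 1.57 times its untreated signal, and Thy1 rose slightly in wild-type cells and fell in CHOP-/- cells. In wild-type cells 2 of the 10 genes rose and 5 fell, where 64.1% of all tested genes were called, 27.2% higher and 36.9% lower, and the median was -0.26 for the 10 genes and -0.07 for all. In CHOP-/- cells 0 rose and 6 fell, where 62.5% of all tested genes were called, 25.7% higher and 36.8% lower, with medians of -0.51 and -0.07. The 4 genes without a call in CHOP-/- cells were Pdgfra, Cd34, Twist2 and Vim, with adjusted p from 0.141 to 0.877 in limma. The response itself differed between genotypes for 6 of the 10 genes, 2 higher and 4 lower in CHOP-/- cells, where 28.3% of all tested genes were called, 14.2% higher and 14.1% lower, with medians of -0.07 and -0.0016. Counted by probe set, of the 19 tested, 12 were called in the wild-type response, 10 in the CHOP-/- response, 8 for the difference, 15 untreated and 16 treated, where 58.8%, 56.4%, 24.2%, 49.8% and 54.6% of all 21651 tested probe sets were called. The 5 comparisons reuse the same 4 groups and are not independent of each other.

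The share of rising genes among all calls depended on how the arrays were scaled. It was 42.4% in wild-type cells with the deposited scaling, and 61.6% or 52.8% when arrays were centred on the median of the tested genes or on the upper quartile. In CHOP-/- cells it was 41.2%, and 55.8% with centring on the tested genes. For the difference between the responses it was 50.1%, against 69.7% with centring on the array median and 38.6% with centring on the tested genes. With centring on the tested genes, the median over all genes shifted by 0.20 for the response of wild-type cells and by 0.14 for that of CHOP-/- cells, so a change of that size or less can take its direction from the scaling.

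**Figure D2:**
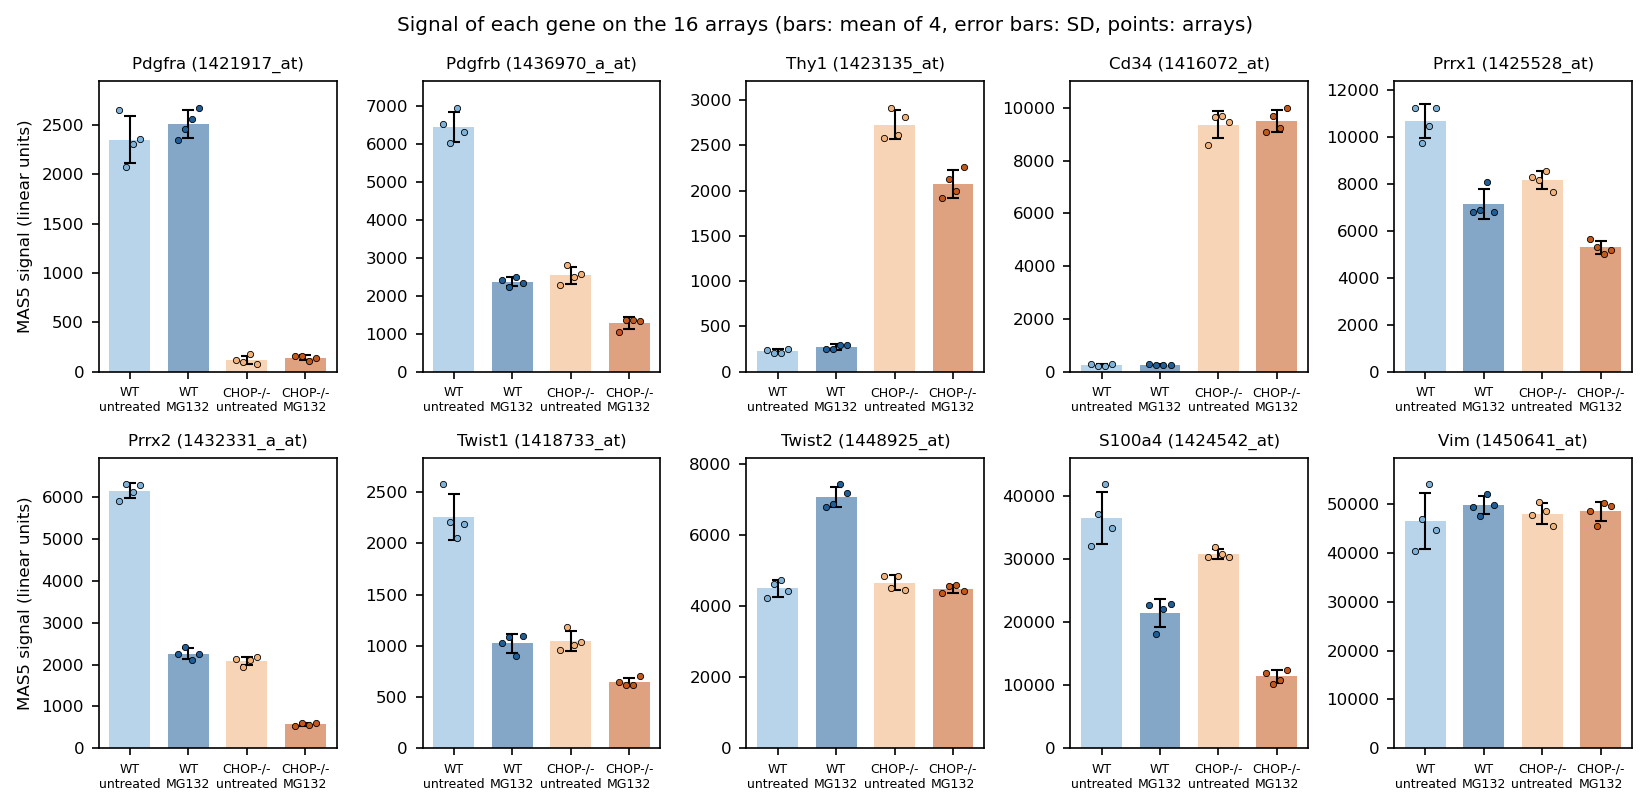
Signal of the representative probe set of each gene on the 16 arrays (MAS5 signal, linear axis from 0; bars are means of 4 arrays, error bars the SD, points the arrays). Pdgfra is near the array median in both CHOP-/- groups (means 118 and 143), Thy1 and Cd34 are high only there, and Vim has similar means in all 4 groups (46535 to 49753).

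Pdgfra encodes a receptor for PDGF dimers, those of PDGF-A and PDGF-C among them, and marks mesenchymal progenitors. Its strongest probe set, 1421917_at, read 2656, 2075, 2312 and 2363 in untreated wild-type cells (replicates 1 to 4, as for every list of 4 that follows) and 2345, 2463, 2560 and 2674 after MG132. The CHOP-/- plates gave 119, 101, 178 and 75.3 untreated and 161, 164, 108 and 140 after MG132. All 8 wild-type arrays were above all 8 CHOP-/- arrays, and within a genotype the treated and untreated arrays overlapped. The mean was 2351 ± 239 (SD, n = 4) in untreated wild-type and 118 ± 43.7 in untreated CHOP-/- cells, a log2 difference of -4.19 (SE 0.17, adjusted p = 1.65e-14 in limma), which ranked 64 by size among all tested genes. After MG132 the genotype difference was -4.00 (adjusted p = 3.66e-14). The CHOP-/- signals lay around the array median, so this difference depends on the constant of 16 added before the log. With MG132 the log2 difference was 0.10 in wild-type (adjusted p = 0.63) and 0.28 in CHOP-/- cells (95% interval -0.06 to 0.63, adjusted p = 0.141), and neither passed the test. Without untreated CHOP-/- replicate 3 the latter was 0.48 with an adjusted p of 0.00531 in limma, and without treated CHOP-/- replicate 3 it was 0.40 and also passed.

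The other probe sets of Pdgfra gave the same order of genotypes but another response to MG132. Probe set 1421916_at read 483, 486, 459 and 412 in wild-type cells without MG132 and 805, 832, 922 and 772 with it, without overlap. In CHOP-/- cells it stayed between 85.8 and 111. Tested among all 21651 probe sets, it rose in wild-type cells by 0.83 on the log2 scale (adjusted p = 1.96e-06 in limma), differed by 0.15 in CHOP-/- cells (adjusted p = 0.252), and the responses differed by -0.68 (adjusted p = 0.00318). Probe set 1438946_at rose in both genotypes, by 0.95 (adjusted p = 0.000471) and by 0.87 (adjusted p = 0.00113), from 299 to 387 up to 618 to 738 in wild-type and from 56.5 to 101 up to 97.1 to 224 in CHOP-/- cells. Both were lower in untreated CHOP-/- cells (-2.11 and -1.92 on the log2 scale). With the mean of all 3 probe sets Pdgfra rose with MG132 by 0.63 in wild-type and by 0.43 in CHOP-/- cells (adjusted p = 2.62e-05 and 0.00106 in limma), so the call depends on the probe set.

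Pdgfrb encodes a receptor for PDGF-B and PDGF-D, known from pericytes and fibroblasts. Probe set 1436970_a_at read 6511, 6004, 6939 and 6302 in untreated wild-type cells and 2421, 2229, 2503 and 2342 after MG132. Signals in CHOP-/- cells were 2271, 2807, 2497 and 2562 untreated and 1054, 1372, 1361 and 1342 after MG132. The treated groups lay below the untreated ones of the same genotype without overlap, and treated wild-type overlapped with untreated CHOP-/- cells. The fall was 2.71-fold in wild-type cells, a log2 difference of -1.43 (SE 0.08, adjusted p = 3.3e-12 in limma), and 1.98-fold in CHOP-/- cells, -0.98 (SE 0.08, adjusted p = 1.26e-09). The log2 difference of untreated CHOP-/- from wild-type cells was -1.34 (adjusted p = 1.1e-11). The response in CHOP-/- cells was 0.45 smaller in size (SE 0.11, adjusted p = 0.00428). The other probe set, 1417148_at, fell in both genotypes too (-1.53 and -1.02), but its difference between the responses was 0.52 with an adjusted p of 0.141 in limma. The summed signal of 8 pericyte and smooth muscle markers was 862 to 1272 in untreated and 1357 to 1692 in treated wild-type cells. In CHOP-/- cells the sum was 1833 to 2060 untreated and 1371 to 1611 treated. There the mean of Mcam went from 937 untreated to 538 treated, whereas that of Cspg4 went from 607 to 670. The change in the sum was not tested. Between untreated genotypes Mcam was higher in CHOP-/- cells (mean 937 against 113). Cspg4, above the array median in every group, was lower there (607 against 754).

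All 4 ligand genes were higher in untreated CHOP-/- than in untreated wild-type cells (median 1.08 on the log2 scale), where 28.6% of all tested genes were called higher. Pdgfd had a mean signal of 183 ± 47.1 in wild-type and 1121 ± 102 (SD, n = 4) in CHOP-/- cells, a log2 difference of 2.55 (SE 0.19, adjusted p = 4.81e-10 in limma). Pdgfc read 2726, 2419, 2506 and 2616 in untreated wild-type and 6820, 6640, 6807 and 6311 in untreated CHOP-/- cells, groups that did not overlap, with a log2 difference of 1.37 (SE 0.05, adjusted p = 5.94e-15). Pdgfa and Pdgfb were higher by 0.79 and 0.80. MG132 raised Pdgfc in wild-type cells, to 4417, 4214, 4076 and 4504 (0.74, adjusted p = 9.03e-11), and lowered it in CHOP-/- cells, to 4670, 4678, 5147 and 4749 (-0.46, adjusted p = 1.06e-07). Its responses differed by -1.21 (adjusted p = 3.55e-10 in limma). In all, 1 ligand gene rose and 1 fell in wild-type cells, and 0 rose and 4 fell in CHOP-/- cells. Of all tested genes 64.1% and 62.5% were called in these responses, and 28.3% for the difference between them. Pdgfd read 62.4 to 116 in treated wild-type cells, near or below the array median. The responses of 3 of the 4 ligand genes differed between genotypes, although that of Pdgfa lost its call with centring on the array median and with quantile normalisation.

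**Figure D3:**
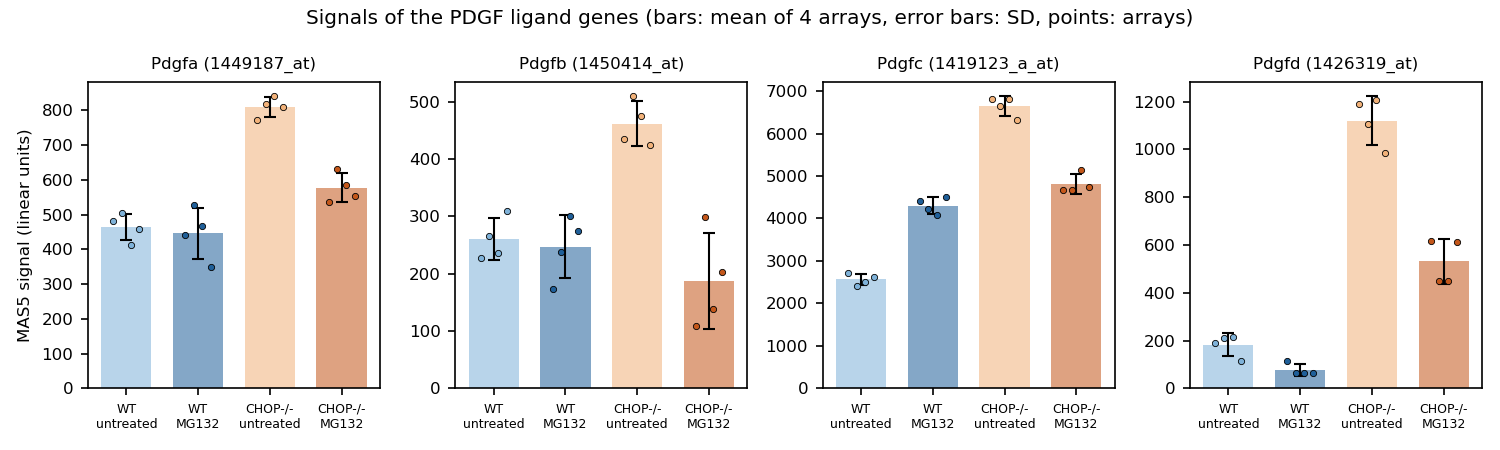
Signal of the 4 PDGF ligand genes on the 16 arrays (MAS5 signal, linear axes from 0; bars are means of 4 arrays, error bars the SD, points the arrays). All 4 have their highest mean in untreated CHOP-/- cells, such as 1121 for Pdgfd against 183 in untreated wild-type cells, and Pdgfc alone has a higher mean with MG132 in wild-type cells (4303 against 2567).

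Among 16 genes for adaptors and effectors of the receptors, 4 rose and 7 fell with MG132 in wild-type cells and 3 rose and 4 fell in CHOP-/- cells. Of all tested genes 64.1% and 62.5% were called in these comparisons, and 55.6% between untreated genotypes. The counts of this and the other lists are to be read beside those shares. The kinase gene Akt1 fell in both (-1.20 and -0.88), and the adaptor gene Grb2 rose in both (0.55 and 0.60). In untreated cells 6 were higher and 6 lower in CHOP-/- than in wild-type, among them the docking protein gene Gab1 (-0.91). The counts moved with the scaling, to 7 rising and 4 falling in wild-type cells when arrays were centred on the tested genes, with Akt1 and Grb2 called each time. Of 6 related receptor kinases 4 were tested, and Flt1 rose in wild-type cells (1.40, adjusted p = 1.12e-06 in limma) whereas its response in CHOP-/- cells was -0.38 (adjusted p = 0.0771), a difference of -1.78 (adjusted p = 3.6e-05).

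Thy1 encodes a surface glycoprotein anchored by a lipid, carried by many fibroblasts, T cells and neurons. It read 245, 206, 212 and 247 in untreated wild-type cells and 252, 248, 295 and 301 after MG132. Without CHOP the signals were 2582, 2912, 2607 and 2807 untreated and 1918, 2124, 1993 and 2260 after MG132. None of the 4 groups overlapped with the next. The genotype difference was 3.50 in untreated cells (SE 0.09, adjusted p = 1.3e-17 in limma) and 2.85 in treated cells (adjusted p = 2.79e-16), or 12-fold and 7.57-fold in mean signal. MG132 raised the signal in wild-type cells by 0.25 (SE 0.09, adjusted p = 0.0167), a call that was lost with centring on the array median (0.20, adjusted p = 0.116) and without untreated replicate 2 or treated replicate 3 or 4 (0.21 to 0.22, adjusted p = 0.0528 to 0.0598). It fell in CHOP-/- cells (-0.39, adjusted p = 0.000568), and the responses differed by -0.64 (adjusted p = 0.000581). The summed signal of 8 neural markers was 4169 to 5461 in untreated wild-type and 838 to 929 in untreated CHOP-/- cells. It was led by Map2 (means 2417 and 346) and Sox2 (1775 and 184). After MG132 Tubb3 was higher in CHOP-/- than in wild-type cells (1096 against 690). The other 5 markers were not above the array median on all 4 arrays of any group. The T cell and leukocyte marker Ptprc had means of 20.5 to 29.7, below the array median, although the summed leukocyte list was 793 to 927 in untreated wild-type and 1502 to 1768 in untreated CHOP-/- cells, led by Cd14, and its part was not tested.

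Cd34 encodes a sialomucin of stromal, endothelial and blood progenitor cells and had the largest difference of the 10 genes. It read 309, 218, 228 and 287 in untreated wild-type cells and 283, 264, 260 and 268 after MG132. On the CHOP-/- arrays it read 8610, 9647, 9697 and 9475 untreated and 9096, 9688, 9244 and 9998 after MG132. The genotypes were far apart, and treated and untreated arrays overlapped within each. The log2 difference between genotypes was 5.10 in untreated (SE 0.08, adjusted p = 2.14e-20 in limma) and 5.06 in treated cells (adjusted p = 3.04e-20), ranks 24 and 23 by size among all tested genes. The response to MG132 was 0.06 (95% interval -0.12 to 0.23) in wild-type and 0.02 (-0.15 to 0.20) in CHOP-/- cells, and neither passed the test (adjusted p = 0.583 and 0.828). Endothelial markers were low in both genotypes, with a summed signal of 233 to 437 in untreated wild-type and 217 to 351 in untreated CHOP-/- cells. Podxl, the tested gene of the same sialomucin family, was lower in untreated CHOP-/- cells (log2 difference -0.63, adjusted p = 0.008 in limma).

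Of 20 further fibroblast surface and matrix genes 15 were tested, with 7 higher and 4 lower in untreated CHOP-/- cells. Alcam, a stromal adhesion molecule, was higher by 3.56. Dcn, the matrix proteoglycan decorin, was also higher, with a mean of 1075 against 38.5 in wild-type cells, the latter below the array median. Col3a1 was higher by 1.22 and Mfap5 was lower (-1.74). With MG132 Col3a1 fell (-1.36 in wild-type and -2.19 in CHOP-/- cells), whereas Ddr2, a collagen receptor, rose by 0.96 and 0.81 and Serpinh1, a collagen chaperone, by 0.77 and 0.59. In wild-type cells 6 rose and 5 fell, or 8 and 3 when centred on the tested genes, and in CHOP-/- cells 3 rose and 5 fell.

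**Figure D4:**
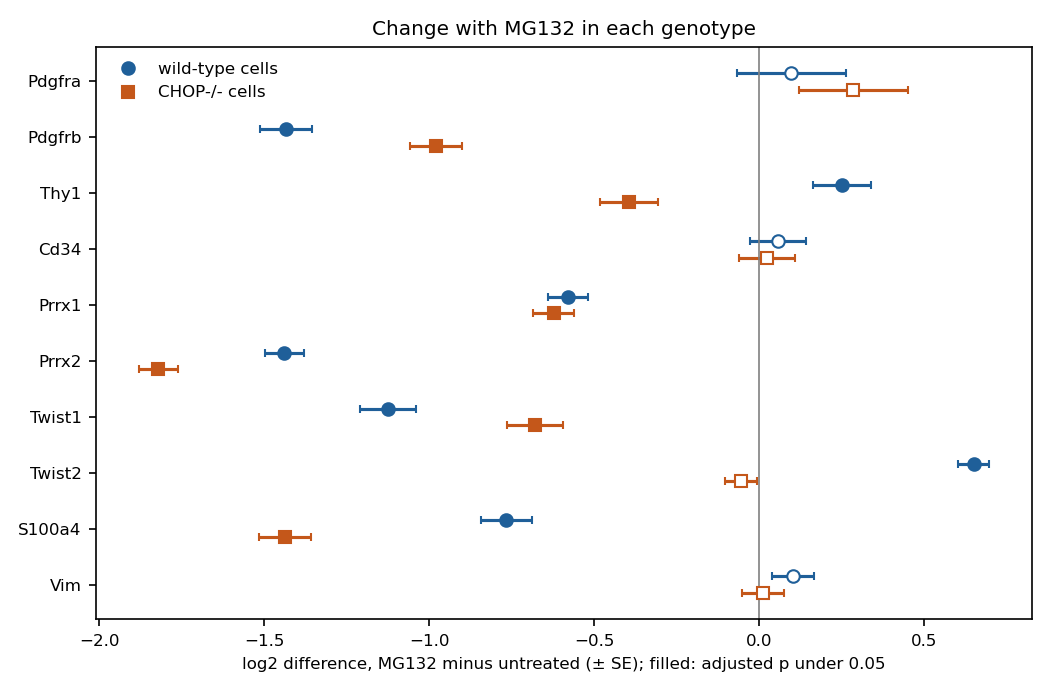
Change with MG132 for each of the 10 genes (log2 difference, treated minus untreated, bars are the SE), wild-type cells as circles and CHOP-/- cells as squares, filled where the adjusted p in limma was under 0.05. Prrx2 has the lowest value in CHOP-/- cells (-1.82), Twist2 is at 0.65 in wild-type and -0.05 in CHOP-/- cells, and Cd34 and Vim lie near 0.

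Prrx1 encodes a homeobox factor of limb and head mesenchyme. Its strongest probe set, 1425528_at, read 11210, 9712, 10449 and 11219 in untreated wild-type cells and 6792, 6865, 8076 and 6776 after MG132. The CHOP-/- plates gave 8263, 8138, 8556 and 7648 untreated and 5634, 5301, 5018 and 5195 after MG132. Treated arrays lay below untreated ones in each genotype, and treated wild-type overlapped with untreated CHOP-/- cells. It fell with MG132 in wild-type (-0.58, adjusted p = 5.62e-08 in limma) and in CHOP-/- cells (-0.62, adjusted p = 2.25e-08), with a difference between the responses of -0.04 (95% interval -0.22 to 0.14, adjusted p = 0.758). Untreated CHOP-/- cells were lower (-0.38, adjusted p = 2.03e-05).

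The 6 probe sets of Prrx1 disagreed on the response to MG132. Probe set 1439774_at read 4304, 3796, 3854 and 4042 in wild-type cells without MG132 and 4620, 4848, 4723 and 4471 with it, and 3511, 3056, 3159 and 3336 against 2216, 2253, 2244 and 2057 in CHOP-/- cells. It rose in wild-type cells by 0.22 (adjusted p = 0.00186 in limma), fell in CHOP-/- cells (-0.57, adjusted p = 3.91e-08), and the responses differed by -0.79 (adjusted p = 6.03e-07). Probe set 1425527_at fell in both genotypes (-0.28 and -0.25), and 1425526_a_at and 1432129_a_at passed the test in neither. All 5 tested probe sets were lower in CHOP-/- cells at both treatments, with log2 differences of -0.42 to -0.29 untreated. The remaining one, 1458004_at, read 9.08 to 71.5, never exceeded the array median and was not tested. With the mean of all probe sets the wild-type response of Prrx1 was -0.10 (adjusted p = 0.305 in limma).

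**Figure D5:**
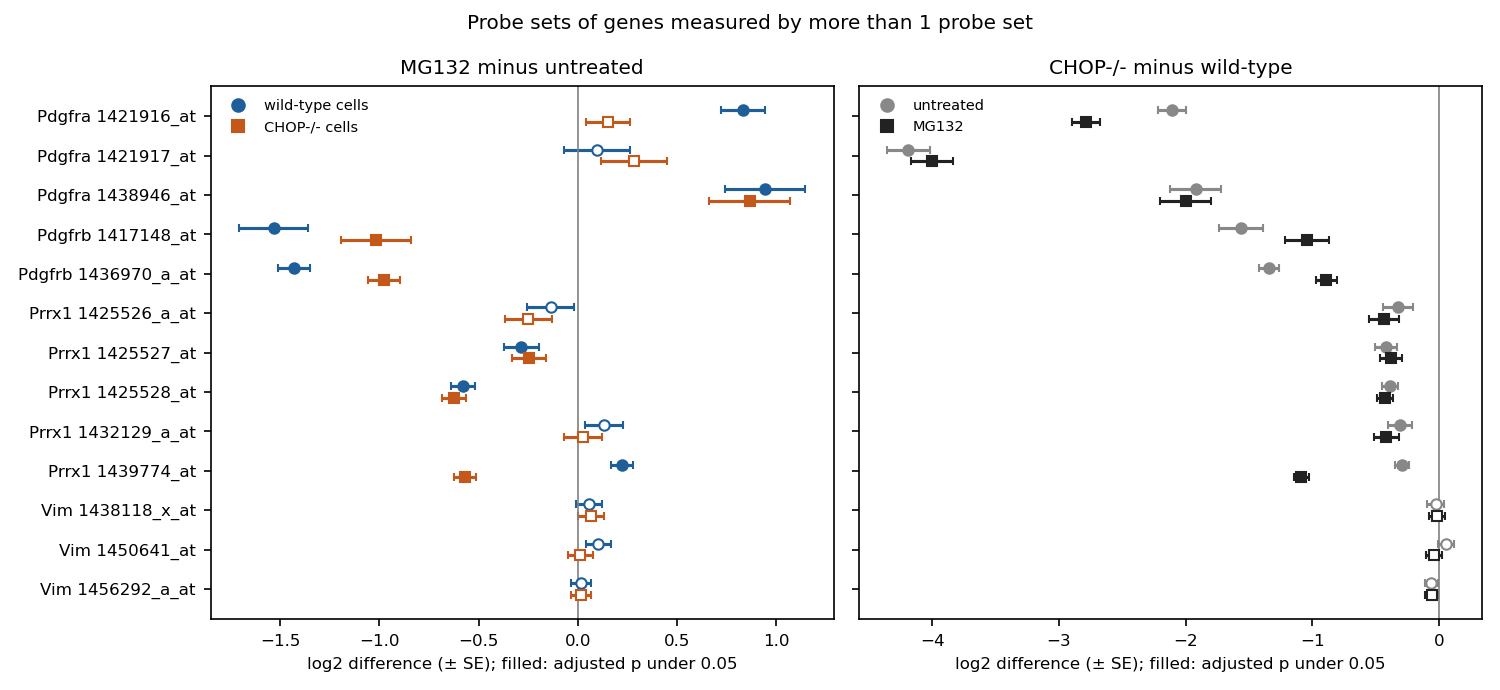
Log2 differences (± SE) of the tested probe sets of the 4 genes measured more than once, with MG132 minus untreated on the left and CHOP-/- minus wild-type on the right, filled where the adjusted p in limma over all probe sets was under 0.05. Genotype differences have the same sign in all probe sets of Pdgfra, Pdgfrb and Prrx1, whereas Prrx1 1439774_at rose in wild-type cells (0.22) and 1425528_at fell (-0.58).

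Prrx2 encodes the close relative of PRRX1 and fell with MG132 in both genotypes, in wild-type cells by about as much as Pdgfrb. It read 5908, 6305, 6114 and 6283 in untreated wild-type cells and 2261, 2430, 2107 and 2243 after MG132. Signals in CHOP-/- cells were 2129, 1937, 2105 and 2177 untreated and 537, 610, 560 and 610 after MG132. Treated wild-type and untreated CHOP-/- cells overlapped, and the other neighbours in level did not. The fall was -1.44 in wild-type (SE 0.06, adjusted p = 3.36e-14 in limma) and -1.82 in CHOP-/- cells (SE 0.06, adjusted p = 1.2e-15), or 2.72-fold and 3.60-fold. The response in CHOP-/- cells differed by -0.38 (adjusted p = 0.0018), a call lost with centring on the array median (-0.29, adjusted p = 0.130). CHOP-/- cells were lower both untreated (-1.55, adjusted p = 8.96e-15) and treated (-1.94, adjusted p = 2.62e-16).

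Twist1 encodes a basic helix-loop-helix factor needed for head mesenchyme. It read 2576, 2210, 2050 and 2192 in untreated wild-type cells and 1026, 1084, 897 and 1097 after MG132. Without CHOP the signals were 964, 1185, 1006 and 1042 untreated and 642, 622, 618 and 709 after MG132. Treated arrays were lower in each genotype without overlap, and treated wild-type overlapped with untreated CHOP-/- cells. It fell 2.20-fold in wild-type (log2 difference -1.12, SE 0.09, adjusted p = 4.11e-10 in limma) and 1.62-fold in CHOP-/- cells (-0.68, adjusted p = 7.16e-07). The interaction was 0.45 (SE 0.12, adjusted p = 0.00855), and untreated CHOP-/- cells were lower (-1.09, adjusted p = 9.18e-10).

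Twist2, also named Dermo1 and known from skin mesenchyme, rose with MG132 in wild-type cells, where Twist1 fell. It read 4218, 4634, 4740 and 4418 in untreated wild-type cells and 6789, 6887, 7427 and 7179 after MG132. On the CHOP-/- arrays it read 4837, 4510, 4852 and 4458 untreated and 4373, 4570, 4592 and 4421 after MG132. The 4 treated wild-type arrays stood above all 12 others, whose 3 groups overlapped. Twist2 rose in wild-type cells by 0.65 (SE 0.05, adjusted p = 3.07e-10 in limma), and the response in CHOP-/- cells was -0.05 (95% interval -0.16 to 0.05, adjusted p = 0.345). The interaction was -0.70 (SE 0.07, adjusted p = 2.44e-07). The genotypes differed by 0.05 untreated (adjusted p = 0.389) and by -0.65 treated (adjusted p = 3.83e-10).

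Of 9 genes for dimer partners and inhibitors of TWIST proteins 8 were tested. In wild-type cells 0 rose and 6 fell with MG132, and in CHOP-/- cells 1 rose and 7 fell. Id1, Id2 and Id3, whose proteins hold E proteins away from DNA, had the smallest adjusted p values of the list in wild-type cells. The log2 change was -1.34 in wild-type and -2.44 in CHOP-/- cells for Id1, -1.25 and -1.83 for Id2, and -0.96 and -1.53 for Id3. These responses differed between genotypes, most for Id1 (-1.09, adjusted p = 3.24e-08 in limma). In untreated CHOP-/- cells 5 of the 8 were lower, among them Tcf4, an E protein gene (-0.96), while Hand2, a helix-loop-helix factor of limb and heart, was higher (adjusted p = 1.52e-11). Its mean signal was 1112 in untreated CHOP-/- and 19.8 in untreated wild-type cells, the latter below the array median, so the size of this difference is not given.

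Of 7 epithelial-mesenchymal transition genes, which include factors that act beside TWIST, 6 were tested, and 4 rose and 2 fell with MG132 in each genotype. Snai2 rose by 1.20 in wild-type and 0.61 in CHOP-/- cells, whereas its relative Snai1 fell (-1.69 and -0.94), as did the cadherin gene Cdh2 (-1.03 and -0.42). Of 23 other mesenchymal transcription factors 16 were tested, with 3 higher and 9 lower in untreated CHOP-/- cells. The homeobox gene Msx2 was lower, with a mean signal of 59.9 against 1916 in wild-type cells, as was its relative Msx1, with 149.6 against 2856, and Shox2 was higher by 1.84. The Msx2 signal in CHOP-/- cells lay below the array median and that of Msx1 not far above it. With MG132 4 rose and 7 fell in wild-type and 5 rose and 6 fell in CHOP-/- cells, among them Osr1, which fell in both (-1.06 and -1.12), and Sox9, which rose in wild-type cells from a mean of 74.7, below the array median, to 466.

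S100a4 encodes a calcium-binding protein that acts on non-muscle myosin. It read 32066, 37161, 41802 and 34945 in untreated wild-type cells and 22641, 18170, 22145 and 22836 after MG132. The CHOP-/- plates gave 30268, 31826, 30734 and 30276 untreated and 11985, 10245, 10859 and 12423 after MG132. No group overlapped with its neighbour in level, and the treated CHOP-/- arrays were lowest. It fell 1.70-fold in wild-type (-0.77, SE 0.08, adjusted p = 3.76e-08 in limma) and 2.70-fold in CHOP-/- cells (-1.44, SE 0.08, adjusted p = 3.5e-12), with an interaction of -0.67 (adjusted p = 0.00014). Treated CHOP-/- cells were lower than treated wild-type cells (-0.91, adjusted p = 4.02e-09). The untreated difference of -0.24 (adjusted p = 0.0139) was not called without untreated wild-type replicate 3 (-0.17, adjusted p = 0.0606).

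Of 13 other genes of the S100 family or its binding proteins 8 were tested, of which 1 rose and 5 fell in wild-type and 0 rose and 6 fell in CHOP-/- cells. The changes were -1.88 and -1.25 for S100a16, -1.55 and -1.57 for S100a13, and -1.39 and -0.94 for S100a1. The CHOP-/- count dropped to 3 when arrays were centred on the tested genes, with S100a6, S100a10 and S100pbp no longer called. Of 3 genes for partners of S100A4, Myh9, the non-muscle myosin chain, rose by 0.30 in wild-type and 0.24 in CHOP-/- cells, both lost under quantile normalisation. Anxa2, which encodes an annexin, fell in wild-type cells (-0.22, adjusted p = 0.00226 in limma), a call lost with centring on the tested genes or the upper quartile, and had -0.13 in CHOP-/- cells (adjusted p = 0.053). Ppfibp1 passed in neither.

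Vim encodes vimentin and passed the test in none of the 5 comparisons. Its strongest probe set, 1450641_at, read 40461, 46910, 54047 and 44719 in untreated wild-type cells and 49480, 47584, 52092 and 49858 after MG132. Signals in CHOP-/- cells were 47737, 50498, 48591 and 45472 untreated and 48686, 45612, 50170 and 49522 after MG132. All 4 groups overlapped, and untreated wild-type cells had the widest spread (46535 ± 5679, SD, n = 4). The response was 0.10 (95% interval -0.03 to 0.24, adjusted p = 0.167 in limma) in wild-type and 0.01 (-0.12 to 0.15, adjusted p = 0.877) in CHOP-/- cells, and the untreated genotype difference was 0.05 (-0.08 to 0.19, adjusted p = 0.502). These intervals leave out a change of 1 or more on the log2 scale. The other 2 probe sets passed in none of these comparisons either. Vim signals were close to the highest signal of any probe set on an array, 48062 to 67213, and saturation was not examined here. Without untreated wild-type replicate 3 the wild-type response was 0.18 (adjusted p = 0.00512) and the untreated genotype difference 0.13 (adjusted p = 0.041).

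Of 11 other genes for intermediate filaments and their linkers 10 were tested. In untreated cells 1 was higher and 1 lower in CHOP-/- than in wild-type, the latter being Synm, which encodes a filament protein that assembles with vimentin (adjusted p = 4.54e-11 in limma), with a mean signal of 532 in wild-type cells and of 48.1, below the array median, in CHOP-/- cells. With MG132 2 rose and 5 fell in wild-type and 2 rose and 4 fell in CHOP-/- cells, among them the filament gene Nes (-1.24 and -0.83), the lamin gene Lmnb2 (-1.18 and -0.65) and the linker gene Plec (-0.41 and -0.38).

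Likeness of pattern was measured as the root mean square difference over the 16 arrays, on the log2 scale with each gene centred on its own mean. Among the 10 genes Pdgfrb and Twist1 were closest (0.24), and Pdgfra and Cd34 were farthest apart (4.59). The tested genes most like each member were Rpgrip1 and Bmp2 for Pdgfra (both 0.30), Rab3d (0.14) and Sspn (0.15) for Pdgfrb, and Tspan6 and Alcam for Thy1 (both 0.23). For Cd34 they were Xist (0.29) and Gng2 (0.33), for Prrx1 B230219D22Rik (0.094) and Cast (0.096), and for Prrx2 Pdk1 (0.16) and Id2 (0.18). Tram2 (0.11) and Galc (0.13) were most like Twist1, Dnajc18 (0.069) and Ipmk (0.074) most like Twist2, 1600012H06Rik (0.10) and Fos (0.15) most like S100a4, and Btf3 (0.041) and Rpl27 (0.045) most like Vim. The arrays share group means, so likeness mostly reads the 4 group levels.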

How the data were processed

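Total RNA from 16 plates, 4 in each of 4 groups, was biotin-labelled with a kit for 3' in vitro transcription and hybridised to Affymetrix arrays, per the labels. The deposited values are linear signal intensities, 1 per probe set and array, which the authors made with MAS5, per the submitters' processing notes. No version or setting of MAS5 is given in the sources used here. A mean of 1000 after trimming 2% of values at each end showed that the authors had scaled every array. Of 45101 probe sets 34945 named 1 gene in the platform annotation, 9160 named none, 932 named several and 64 were controls, and 34741 of the single-gene ones matched the gene reference.

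Signals were taken as log2(signal + 16) without further normalisation. A gene was represented by its probe set with the highest mean and tested if that lay above the array median on at least 4 of 16 arrays, which left 11451 genes. All 16 arrays were fitted together in limma 3.58.1 under R 4.3.3 with 1 coefficient per group, trended variance and 12 residual degrees of freedom. Tests were two-sided, with Benjamini-Hochberg adjustment over all tested genes in each of 5 comparisons and a threshold of 0.05. Log2 values understate the change of dim genes. Folds are ratios of mean signals. The fit was tested on simulated data. The number of arrays limits the precision.

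The named genes are all 10 members, Ddit3, the 2 tested genes most like each member, and up to 4 genes of each list with the smallest adjusted p in the comparison described. The members, lists and promoters were chosen with earlier results of these data known. Alternatives were pseudocounts, filters, scalings, choices of probe set, the arrays fitted, a replicate block and leaving out each array. Centring on the tested genes and on the upper quartile were added after seeing the data. Promoters came from RefSeq (GRCm38.p6), and gene coordinates were not used because the files name no build.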

Additional observations from a re-analysis of the deposited data

Results flagged for a closer look

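In 5 of the 80 groups of 4 values examined over the probe sets of the 10 genes, 1 array stood apart from the other 3 by more than Dixon's 95% critical value. Chance gives about 1 such group in 20. Pdgfrb 1436970_a_at was low in treated CHOP-/- replicate 1, at 1054 against 1342 to 1372 in the others. Prrx1 1425528_at was high in treated wild-type replicate 3, at 8076 against 6776 to 6865, and Prrx1 1425526_a_at was low in treated CHOP-/- replicate 3, at 1606 against 2003 to 2048. S100a4 was low in treated wild-type replicate 2, at 18170 against 22145 to 22836. Vim 1456292_a_at was high in untreated wild-type replicate 3, at 41056 against 35339 to 36306.

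The response to MG132 differed between the genotypes for 6 of the 10 genes by the interaction contrast in limma, given as CHOP-/- minus wild-type on the log2 scale. Of all 11451 tested genes 28.3% were called in this contrast, 14.2% higher and 14.1% lower. The difference was 0.45 for Pdgfrb and 0.45 for Twist1, which fell less in CHOP-/- cells. It was -0.64 for Thy1, which rose in one genotype and fell in the other. It was -0.38 for Prrx2 and -0.67 for S100a4, which fell more in CHOP-/- cells, and -0.70 for Twist2, which was called only in wild-type cells.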

How the results depend on the processing

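Over all alternatives, 1457 of the values recomputed for the 10 genes kept their call and its direction, or stayed without a call. Of the rest, 11 gained a call, 11 lost one and 1 reversed. Values that stayed without a call could change sign, as for Twist2 in CHOP-/- cells (-0.08 to 0.09). The reversal was the response of Vim in CHOP-/- cells, which was 0.01 without a call and became -0.15 (adjusted p = 7.86e-05 in limma) under quantile normalisation. The cause was not tested. No count of called genes, both directions together, moved by over 1.5 times: across settings 6 to 9 of the 10 genes were called in the wild-type response, 5 to 7 in the CHOP-/- response, 4 to 6 for the difference, 7 to 8 untreated and 8 to 10 treated. Of all genes 6214 to 7454, 6045 to 7375, 2362 to 3486, 5421 to 6520 and 5779 to 6895 were called in the same order. The main setting called 64.1%, 62.5%, 28.3%, 55.6% and 58.8% of the 11451 genes tested. Counts in 1 direction moved more: the 2 of the 10 genes that rose in wild-type cells became 1 with centring on the array median, 3 on the upper quartile and 4 on the tested genes, where 1 of the 10 rose in CHOP-/- cells in place of 0. Leaving out 1 array each gave 6 to 8, 6 to 7, 6, 8 and 9 of the 10 genes. Over all genes it gave 7023 to 7315, 6806 to 7323, 2954 to 3295, 5962 to 6368 and 6395 to 6907. Calls tied to the choice of probe set were those of Pdgfra and of Prrx1 given above, and the difference for Pdgfrb when probe sets with a plain suffix were preferred (0.52, adjusted p = 0.128). Calls tied to scaling were Thy1 and Prrx2 with centring on the array median, and with centring on the tested genes Cd34 (0.26) and Vim (0.31) in wild-type cells, Pdgfra in CHOP-/- cells (0.43) and S100a4 untreated, whose difference became -0.17 (adjusted p = 0.123). With centring on the upper quartile Vim gained a call in wild-type cells (0.21, adjusted p = 0.0215 in limma). S100a4 untreated lost its call there (-0.19, adjusted p = 0.0752). Under quantile normalisation Vim also gained a call between the treated genotypes (-0.09, adjusted p = 0.0102). Fitting only the groups compared ended the wild-type call of Thy1 (adjusted p = 0.130). Same-numbered replicates correlated at -0.07 to 0.16 over 24 pairs, 5 of them above 0.1, and 8 of 16 arrays were closest to their own number. The share expected without a pairing was not worked out, so whether the numbers pair the arrays was not tested. With the replicate as a block 7, 6, 6, 8 and 9 of the 10 genes were called in the same order, and no call of the 10 genes changed. Signals near or below the array median, as for Pdgfra in CHOP-/- cells, have no detection call behind them here.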
